A study of Homo sapiens with 12 samples.

Results

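In all, 4 libraries of the APEX-NES line of Huh-7.5 cells, 2 after arsenite and 2 after mock treatment, are described here out of 12 libraries in the series. They were chosen by their titles and by their genotype and treatment labels. Huh-7.5 is an established human hepatocellular carcinoma line. The NES group carries the peroxidase APEX2, a proximity-labelling enzyme, with what is usually a nuclear export signal. Mock cells of genotype APEX-NES were compared with APEX-NES cells given 0.5 mM sodium arsenite for 45 minutes. The other 8 libraries, from APEX-NLS and APEX-G3BP1 cells under the same treatments, entered the fit for the estimate of spread and for the test of a difference between lines. All of the groups express an APEX2 construct, so no group shows the parental cells. Whether the line is 1 clone, and whether replicates came from separate cultures, is not given in the sources used here. P-values therefore measure only the spread between these libraries, which may be technical.

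Sodium arsenite binds protein thiols and causes oxidative and protein-folding stress. Cells answer within minutes by blocking translation initiation through phosphorylated eIF2 alpha, and by collecting stalled mRNAs with G3BP1 in stress granules. At the same time the immediate-early genes, the heat shock genes and the metal and oxidant response genes are transcribed. As further background, RNA polymerase II normally stops shortly after the poly(A) site, where the signal AAUAAA and the cleavage and polyadenylation complex release the mRNA. Heat, osmotic and oxidative stress are known to let polymerases run on past gene ends in many cell types. Because the RNA was total RNA with ribosomal RNA depleted and the library kit keeps the strand, introns and stretches past gene ends can be counted as well as mRNAs.

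The 4 libraries held 1358372 and 1302553 counts after mock treatment and 1435934 and 1170783 counts after arsenite, so that 3 counts, the smallest level taken as shown, were 2.15 to 2.64 CPM (counts relative to library totals scaled by the TMM method). Floors and counting intervals cover counting error only. A row name in this table can stand for RNA from the opposite strand. Several abundant genes had nearly all of their counts on a row annotated opposite to them. For example, ENSG00000269968, opposite to GAPDH, had 13210 and 12736 counts in mock libraries, and GAPDH itself had 22 and 5. Rows are therefore named as the table names them, and the gene on the other strand is given beside many of them. Others are named below without it, such as CHORDC1, which lies past the end of NAALAD2, and RPL9, opposite to LIAS. A row with no such gene given may still have one. Rows of the hepatocyte list held 6254 to 7648 counts per library in their own name, and rows opposite to exons of these genes held 11431 to 13791. The row KRT8, opposite to KRT18, is in both sums and gave 5650 to 6808 of the counts. Of 17 rows of fibroblast, immune and endothelial marker genes, 3 passed the filter on low counts. The fibroblast rows summed to 16 and 16 counts after mock and 74 and 51 after arsenite, nearly all of it COL3A1, the immune rows to 33 and 32 against 24 and 16, and the endothelial rows to 8 and 11 against 5 and 3. In each of these lists 2 rows were at 0 in the 4 libraries.

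After 45 minutes of arsenite, 2658 of 13108 rows tested had changed in the NES line (20.3% called; edgeR quasi-likelihood test, Benjamini-Hochberg adjusted p under 0.05). Of these, 1425 were higher (10.9%) and 1233 lower (9.41%). Of the rows that rose 780, and of those that fell 460, differed by 2-fold or more. The arsenite and mock libraries did not overlap for 2649 of the called rows, and they did not overlap for 7635 of all rows tested. The median log2 fold change over all rows was −0.02, and it was −0.05 when library totals were used without further scaling. Leaving out 1 of the 4 libraries lowered the number called to between 1747 and 1836, and the DESeq2 test called 1040, all of which were among the 2658. For 279 of the 2658 DESeq2 gave no adjusted p. At the threshold itself lay JPH3 and KNG1 just inside (adjusted p of 0.0497 and 0.0498) and ENSG00000225711, TSPYL1 and FBXL19 just outside (0.0501 for each).

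The direction of change went with where a row lies against coding genes on the opposite strand. Rows were placed on GENCODE release 29 of the GRCh38 assembly. A total of 4807 tested rows overlapped an exon of a coding gene on the opposite strand, 2498 lay opposite to an intron only, 1850 had an exon within 10 kb past the annotated 3′ end of a coding gene on the opposite strand, and 3259 had none of these places. Another 694 tested rows were not placed. Of the rows past a 3′ end, 518 rose (28.0%) and 87 fell (4.7%), with a median log2 fold change of 0.42. Of the rows opposite to an intron, 85 rose (3.4%) and 423 fell (16.9%), with a median of −0.36. Rows opposite to an exon rose in 542 cases (11.3%) and fell in 340 (7.07%), with a median of 0.05. Rows with none of these places rose in 226 cases (6.93%) and fell in 294 (9.02%), with a median of −0.11. The first class thus rose more often than all rows tested, and the second fell more often. In the class past a 3′ end, 30 rows are mitochondrial. Without them 513 of 1820 rows rose (28.2%) and 76 fell (4.18%).

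**Figure D1:**
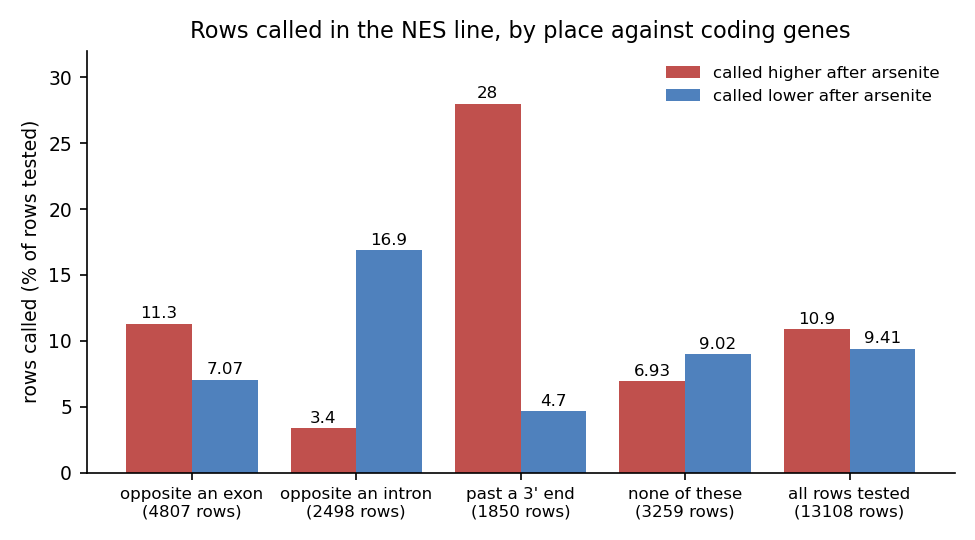
Share of tested rows called higher (red) or lower (blue) after arsenite in the NES line, in percent, for each place of a row against coding genes on the opposite strand and for all rows tested; bars start at 0 and numbers above them are the percentages. Rows past a 3′ end were called higher in 28.0% and rows opposite to an intron were called lower in 16.9%, against 10.9% and 9.41% of all rows.

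The summed counts showed the same order in every library. Rows past a 3′ end held 8.45% and 8.47% of the counts in the mock libraries and 9.69% and 9.29% in the arsenite libraries. Rows opposite to an intron held 7.44% and 7.39% after mock treatment and 6.10% and 5.83% after arsenite. For both classes the arsenite libraries lay outside the range of the mock libraries, though 2 against 2 libraries allow no exact test below p = 0.333. Rows opposite to an exon held the bulk of the counts, between 61.6% and 62.9%. Among rows that averaged 20 CPM or more the contrast in shares was as wide: 33.3% of 757 rows past an end rose, and 27.2% of 825 rows opposite to an intron fell, against 13.1% and 13.2% of 6502 rows in all. The median log2 fold changes of these 757 and 825 rows were smaller than in the whole classes, at 0.27 and −0.31. Of such rows with none of the places 18.2% fell. GC content was computed from the annotated transcripts of each row and split into 5 ranges, from under 40% to 55% and above. Over these ranges rows past an end rose in 23.7% to 29.8% of cases, and rows opposite to an intron fell in 15.9% to 18.5%. Some smaller shares were highest in the top range: rows opposite to an intron rose in 2.61% of cases under 40% GC and in 8.77% at 55% and above, and rows opposite to an exon in 7.85% and 13.9%. The part of GC content in these results was otherwise not tested.

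How far the rise reached past gene ends was followed in bins of distance, chosen after the values were seen. Of rows 0 to 1 kb past a 3′ end on the opposite strand 26.6% rose, of those at 1 to 2 kb 32.6%, at 2 to 5 kb 28.0%, at 5 to 10 kb 27.5% and at 10 to 20 kb 21.3%. The share was 7.41% at 20 to 50 kb and 3.78% at 50 to 100 kb, below that of all rows. Distances on the same strand, and ahead of gene starts, were taken only for rows with none of the places above. That set leaves out rows within 10 kb past an opposite-strand end, so the shares of the strands come from unlike rows. At 0 to 10 kb past the end of a coding gene on their own strand, 6.87% of these rows rose. Of the 256 such rows with no end on the opposite strand within 50 kb, 4.3% rose. Ahead of gene starts, with no end on the opposite strand within 50 kb, the shares were also low, at 3.85% for rows within 10 kb of a start on the opposite strand and 3.81% on the same strand. The profile is a description of annotated positions, and whether the rows hold RNA that runs on from the gene before them was not tested.

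**Figure D2:**
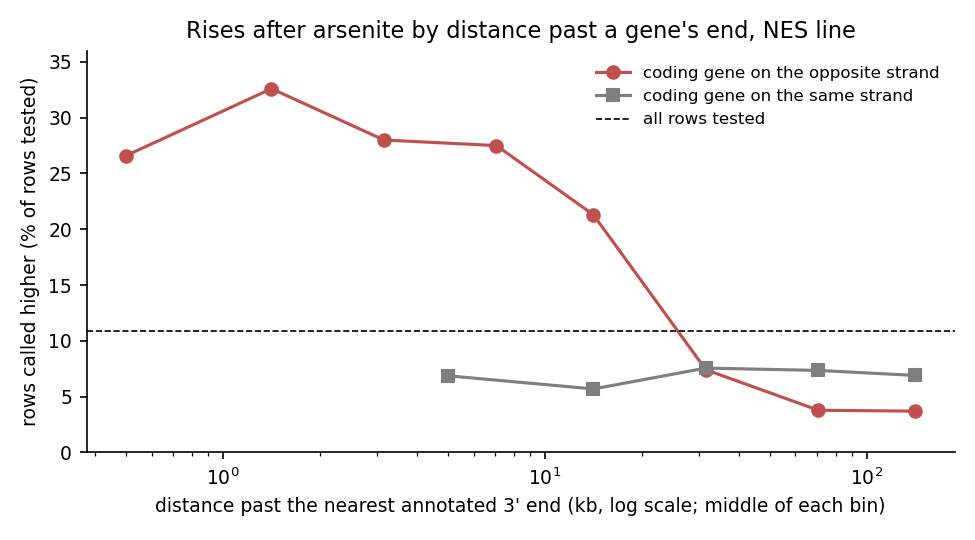
Percent of tested rows called higher after arsenite in the NES line (vertical axis) against distance past the nearest annotated 3′ end of a coding gene in kb (log axis, middle of each bin), for ends on the opposite strand (red circles) and on the same strand (grey squares); the dashed line is the 10.9% of all rows. The opposite-strand shares stay at 21.3% or above up to 20 kb and are 7.41% or below beyond, while the same-strand shares lie between 5.69% and 7.56%. Same-strand shares are of rows with none of the places only, so the curves come from unlike sets of rows.

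Rows inside introns showed the reverse. Of 2082 rows that lie wholly inside introns of the gene on the opposite strand, 37 rose (1.78%) and 396 fell, with a median log2 fold change of −0.42. Of 416 rows that reach partly outside the host gene, 48 rose (11.5%) and 27 fell (6.49%). The share was lower near the end of the host: of 69 rows within 5 kb of the host's 3′ end 1.45% fell, against 15.8% of the next 101 rows, up to 10 kb, and 20.9% of 666 rows more than 100 kb away. Near the host's start, 15.2% of 138 rows within 5 kb fell. A pair of hosts held many such rows. LDLRAD4, a regulator of TGF-beta signalling, had 8 rows, of which 5 fell (62.5%), with a median of −1.15 (−1.15 in the NLS and −0.89 in the G3BP1 line). TRIM5, an antiviral restriction factor, had 12 rows, of which 3 fell. Processed pseudogenes, intronless copies of mRNAs scattered over the genome, fell in 15.2% and rose in 2.72% of 1358 rows, against 9.41% and 10.9% of all rows. U6 pseudogenes fell in 7 (9.72%) and rose in 2 (2.78%) of 72 tested rows of 1271, so that their share lower was near that of all rows. Of these 9 calls DESeq2 made 1 and gave 5 rows no adjusted p. In bulk RNA, fewer cells that make an RNA and less of it per cell cannot be told apart.

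The 12 largest rises among well-counted rows, those with a mean of at least 20 CPM, had log2 fold changes of 2.53 to 3.69. Only called rows whose arsenite and mock libraries do not overlap could be chosen, here and for the falls and classes below. That separation is therefore no further result. Of these, 7 lie past the 3′ end of a coding gene on the opposite strand, 2 opposite to an exon and 2 opposite to an intron, and 1 was not placed. The largest was RPL36A, named for a protein of the large ribosomal subunit, at chrX:101390824-101396154, whose nearest exon lies 1649 bp past the end of GLA, the lysosomal alpha-galactosidase gene. It had 4 and 5 counts in mock libraries and 66 and 48 in arsenite libraries (log2 fold change 3.69, SE 0.37, edgeR adjusted p = 1.67e-16). Its groups were far apart, and its counts in mock libraries were near the floor. GLA, the row facing it, moved the other way, from 30 and 26 counts to 9 and 12 (−1.34, edgeR adjusted p = 0.00281).

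SCAPER, which encodes a cyclin A-interacting protein, had the smallest adjusted p of the 12. Its row at chr15:76347904-76905444 begins 5428 bp past the end of ISL2, a LIM homeobox gene. Counts went from 15 and 18 in mock libraries to 161 and 129 after arsenite (3.19, SE 0.22, edgeR adjusted p = 5.47e-28). TNIP1, an inhibitor of NF-kappa B signalling at chr5:151029945-151093577, lies 952 bp past the end of GPX3, the secreted glutathione peroxidase, and had 5 and 6 counts after mock and 54 and 48 after arsenite (3.25, SE 0.36). QRICH2, 2750 bp past UBALD2, went from 6 and 6 to 57 and 42 counts (3.08, SE 0.36). TCIRG1, a subunit of the vacuolar proton pump that lies 1964 bp past CHKA, the choline kinase gene, went from 18 and 8 to 86 and 91 counts (2.83, SE 0.26). In both rows the arsenite libraries stood well above the mock libraries. The row of CHKA itself had 65 and 56 counts after mock and 78 and 52 after arsenite, and these groups overlap.

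MIR29B2CHG, the host transcript of 2 microRNAs of the miR-29 family, lies 6005 bp past CD46, a complement regulator, and went from 16 and 12 to 87 and 86 counts (2.69, SE 0.26). CBFA2T2, a transcriptional corepressor 7051 bp past NECAB3, went from 27 and 24 to 163 and 120 counts (2.53, SE 0.21). Each row was several times as high in both arsenite libraries as in either mock library. The other placed rises were IL12A-AS1 opposite to an exon of the cytokine gene IL12A (11 and 7 to 78 and 42 counts), H4C15 opposite to an exon of the neighbouring histone gene H3C15 (17 and 15 to 101 and 82), ENSG00000258199, which reaches from an intron of MYL6 to outside that gene (10 and 7 to 48 and 51) and ENSG00000261592 in an intron of MAP1LC3B, an autophagy gene (15 and 7 to 70 and 58). Histone genes and their copies resemble each other, so reads of H4C15 may be shared with related rows. ENSG00000286861, not placed, had 9 and 5 counts after mock and 65 and 43 after arsenite.

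**Figure D3:**
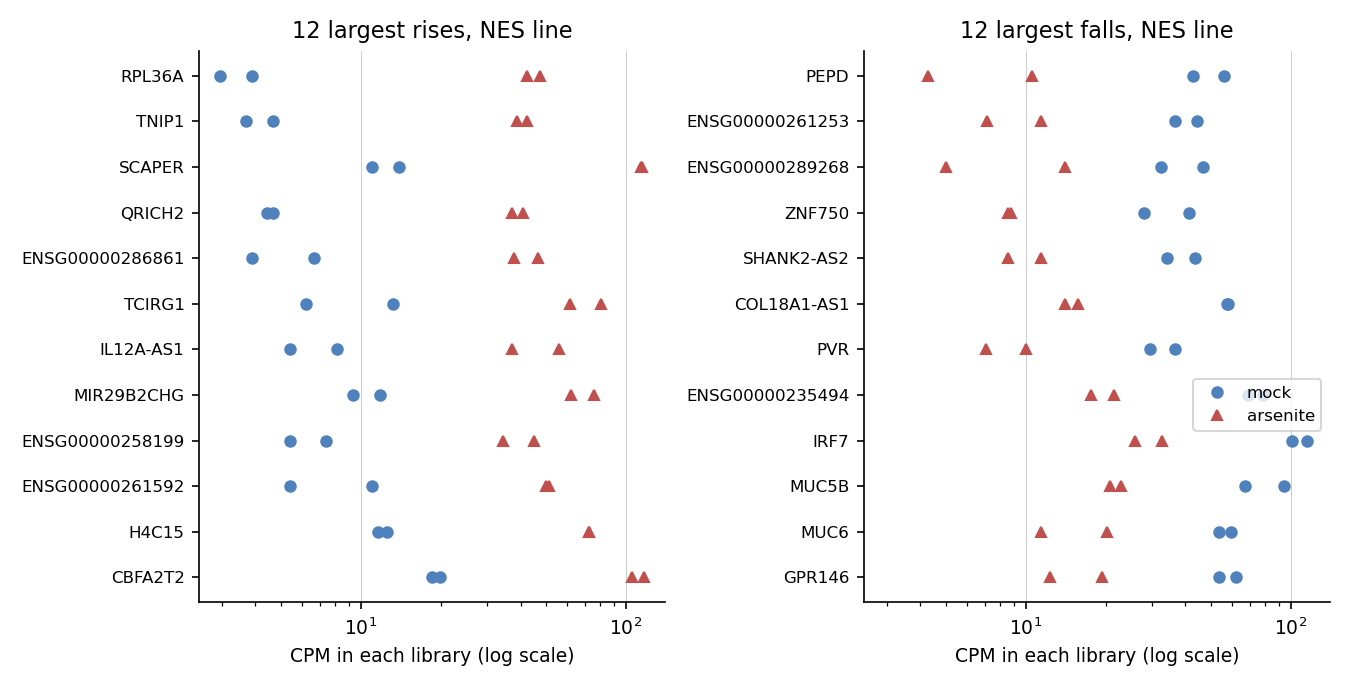
CPM in each of the 4 NES libraries on a log axis, mock as blue circles and arsenite as red triangles, for the 12 largest rises (left) and the 12 largest falls (right) among called rows with a mean of at least 20 CPM. Each line of points is 1 row, and the mock and arsenite libraries do not overlap in any of the 24 rows, as the choice of rows required.

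The last 30 bases of the genes that end before these rows are shown because they hold the place where the mRNA is normally cut. They come from the principal transcripts of GENCODE release 29 (GRCh38), 5′ to 3′ on the strand of the gene, with the poly(A) signal (AATAAA, or ATTAAA where that is absent) in capitals. The transcripts end at chrX:101397803 (GLA), chr5:151028993 (GPX3), chr15:76342476 (ISL2), chr17:76271299 (UBALD2), chr11:68052859 (CHKA), chr1:207795513 (CD46) and chr20:33657087 (NECAB3).
GLA: atgtcATTAAAagacttactttaaaatgtt
GPX3: gcccagtaaaagcctttctgcagcagctga
ISL2: ttgatcttAATAAAaaataataacccgggg
UBALD2: aaaacttaaaaagagacttttctaacttcc
CHKA: tactatacaAATAAAaaaataaaaacccaa
CD46: aAATAAAattgtacatttggagatgtttca
NECAB3: cagaggcAATAAAggcagtggtcccttcca
Of these 7 tails 5 hold a signal. Over all such rows the letters did not separate the genes: AATAAA stood in the last 30 bases of 250 of 499 genes ending before rows that rose (50.1%), of 598 of 1188 genes ending before other tested rows of the class (50.3%), and of 9930 of 19548 coding genes in all (50.8%). The search was on the strand of the gene only and allowed no other letters.

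The 12 largest falls had log2 fold changes of −1.83 to −2.78. Of these, 4 lie opposite to an intron, 3 past a 3′ end, 1 opposite to an exon and 3 in none of these places, and 1 was not placed. PEPD, which encodes the dipeptidase prolidase, at chr19:33386950-33521794, fell most, from 76 and 55 counts in mock libraries to 6 and 12 in arsenite libraries (−2.78, SE 0.31, edgeR adjusted p = 1.35e-13). It faces CEBPG, a partner of ATF4 in the stress response, at chr19:33373330-33382686, and the ends of the 2 genes lie 4264 bp apart. The row CEBPG went the other way, from 0 and 1 counts to 14 and 15, a ratio of scaled sums of 30.3 with a 95% exact counting interval of 5.03 to 1239 (edgeR adjusted p = 1.75e-05). The choice of rows required groups that do not overlap for PEPD, and those of CEBPG did not overlap either. The tails of the pair both carry the signal and are shown because the genes face each other. The CEBPG transcript ends at chr19:33382686 on the plus strand and the PEPD transcript at chr19:33386950 on the minus strand.
CEBPG: ataaAATAAAaaacaactttggaacaatga
PEPD: atttgcAATAAAaggtttcctaaaatggtc

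Falls opposite to introns were ENSG00000261253 inside ANKRD11, a chromatin regulator (60 and 47 counts to 10 and 13; −2.14, SE 0.31), ZNF750 inside TBCD, a tubulin cofactor (56 and 36 to 12 and 10), SHANK2-AS2 inside SHANK2, a synaptic scaffold gene (59 and 44 to 12 and 13), and COL18A1-AS1 inside COL18A1, a basement membrane collagen gene (78 and 75 to 22 and 16). The choice of rows required groups that do not overlap, and in each of these the higher arsenite library had fewer counts than the lower mock library. On the short arm of chromosome 11, IRF7, the interferon regulator, at chr11:612553-615999, fell from 137 and 149 to 36 and 37 counts (−1.90, SE 0.19, edgeR adjusted p = 3.39e-16), although it lies 331 bp past the end of PHRF1. The mucin rows MUC6 (73 and 77 to 16 and 23) and MUC5B (91 and 122 to 29 and 26) lie less than 1 Mb from it and fell by 1.87 and 1.89 on the log2 scale. In all 3 rows both mock libraries lay well above both arsenite libraries. The others were PVR, the poliovirus receptor gene (40 and 47 to 14 and 8), GPR146 (84 and 69 to 27 and 14), ENSG00000235494 (107 and 89 to 30 and 20) and ENSG00000289268 (44 and 60 to 7 and 16).

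Within the classes the rule named further rows. GIT1, a scaffold of focal adhesions that overlaps ANKRD13B in an intron and reaches outside it, rose from 24 and 29 to 155 and 135 counts (2.51, SE 0.20, edgeR adjusted p = 2.3e-22). XPC, a DNA damage sensor that overlaps exons of ENSG00000268279 and LSM3 on the other strand, rose from 11 and 9 to 60 and 35 counts (2.29). LHFPL4 (16 and 12 to 64 and 59), the splicing factor row U2AF2 (8 and 16 to 57 and 47) and ZBED9 (7 and 13 to 46 and 40) were the largest rises with none of the places. Opposite to exons, ENSG00000270082 fell from 61 and 41 to 22 and 11 counts and ENSG00000267882, opposite to the chromatin reader ZMYND8, from 60 and 63 to 17 and 25. The groups of all 7 rows were apart, as the choice of rows required.

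For the lists of coding genes below, the share over protein-coding rows is also of use: of 6370 tested, 16.6% rose and 6.91% fell. Immediate-early genes encode transcription factors that are switched on without new protein. In the row of the gene's own name, 8 of 29 passed the filter, 4 rose (50%, against 10.9% of all rows tested) and 0 fell, with a median log2 fold change of 0.88 against −0.02 over all rows. Of 4 rows opposite to their exons 3 rose (75.0%), with a median of 1.20. The smallest adjusted p among listed rows was that of ENSG00000267598, opposite to IER2, with 222 and 190 counts after mock and 799 and 821 after arsenite (2.05, SE 0.09, edgeR adjusted p = 5.55e-50). HOOK2, opposite to JUNB, an AP-1 subunit, went from 26 and 25 to 92 and 87 counts (1.87, SE 0.23, edgeR adjusted p = 7e-12). Their own rows had few counts: IER2 5 and 1 against 20 and 14, a ratio of 5.93 (95% exact counting interval 2.46 to 17.3), and JUNB 1 and 1 against 18 and 7, a ratio of 13.1 (3.26 to 114). Of the 4 own rows called, DESeq2 called 0 and gave 3 no adjusted p. The JUNB call was lost without arsenite replicate 1 (edgeR adjusted p = 0.0825). For IER2 and JUNB, the row in the gene's name and the row opposite to it were both higher in each arsenite library than in each mock library.

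Heat shock genes encode chaperones that refold damaged protein. Of their own rows 13 of 30 were tested, 5 rose (38.5%) and 0 fell, and 2 of 6 opposite rows rose (33.3%), against 10.9% of all rows tested. HSPD1, the mitochondrial chaperonin, which overlaps its partner gene HSPE1 on the other strand, went from 49 and 72 to 159 and 111 counts (1.22, SE 0.17, edgeR adjusted p = 2.11e-09). TECR, opposite to DNAJB1, a cochaperone of HSP70, went from 21 and 14 to 44 and 52 (1.52, SE 0.28). The row HSP90B1, named for the HSP90 of the endoplasmic reticulum, overlaps exons of UQCC6 and TTC41P on the other strand. It went from 46 and 46 to 102 and 65 counts (0.92, SE 0.20), and CHORDC1, an HSP90 cochaperone, from 52 and 54 to 114 and 73 (0.88, SE 0.19). In these rows arsenite replicate 2 did not always follow replicate 1 closely, but both lay above the mock libraries. DNAJA1 and HSPA5 were the other members that rose, and neither was among the 3 own rows that DESeq2 called.

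In the list of oxidant and metal response genes, 2 of 10 own rows (20%) and 4 of 11 opposite rows (36.4%) rose. The shares were 10.9% of all rows tested and 16.6% of protein-coding rows. None fell, except that 1 own row was called lower with scaling by library totals or with the common replicate block. MGAT4B, which overlaps the selective autophagy receptor gene SQSTM1 on the other strand, went from 14 and 11 to 59 and 53 counts (2.22, SE 0.29, edgeR adjusted p = 1.54e-10). MRNIP, a far better counted row opposite to the same gene, went from 2173 and 2200 to 2717 and 2268 (0.25, SE 0.06, edgeR adjusted p = 0.000771). Both arsenite libraries were above the mock libraries in each row, and the size of the difference was unlike. BEST1, opposite to the ferritin heavy chain gene FTH1, had 12323 and 12138 counts after mock and 15783 and 11828 after arsenite. These raw counts overlap, but after scaling for library size the groups were apart and the row was higher (log2 fold change 0.23, SE 0.06, edgeR adjusted p = 0.00148). FTL and FTH1, the ferritin chains in their own rows, which DESeq2 did not call, and ENSG00000264769, opposite to the small Maf gene MAFG, also rose. The last of these calls was lost without mock replicate 1 (edgeR adjusted p = 0.104).

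The integrated stress response runs from eIF2 alpha kinases through ATF4 to DDIT3 and amino acid genes. Of 11 own rows 3 rose (27.3%) and 1 fell (9.09%), and of 13 opposite rows 3 rose (23.1%), against 10.9% higher and 9.41% lower over all rows. DESeq2 called 0 of these 4 own rows, giving 2 of them no adjusted p, and 2 of the 3 opposite rows. MARS1, the methionyl-tRNA synthetase row, which overlaps exons of DDIT3 and of ARHGAP9 on the other strand, went from 80 and 78 to 274 and 194 counts (1.63, SE 0.13, edgeR adjusted p = 6.24e-22). ATF4 itself went from 4 and 5 to 19 and 15 counts (1.95, SE 0.51, edgeR adjusted p = 0.00205), a change that the DESeq2 test did not call (adjusted p = 0.0571). It lies past the end of RPS19BP1. SHMT2, the mitochondrial serine hydroxymethyltransferase, and its opposite row NDUFA4L2 both rose, from 5 and 2 to 15 and 14 counts and from 16 and 18 to 39 and 36. ATF5 fell from 187 and 200 to 152 and 115 counts (−0.47, SE 0.12), and ENSG00000225420, opposite to the kinase gene EIF2AK3, rose by 0.35.

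The list of transcription termination holds genes of the complex that cuts and releases mRNAs, and also polymerase, elongation and Integrator complex genes. It had 0 of 13 own rows called by edgeR, with 1 at an unadjusted p under 0.05, and 0 by DESeq2. With scaling by library totals 1 own row fell. Of 20 opposite rows 5 rose (25.0%) and 1 fell (5.0%), against 10.9% and 9.41% of all rows. A pair of the rises, ANKRD42-DT and PCF11-AS1, are opposite to the same gene, and PCF11-AS1 lost its call without mock replicate 2 or arsenite replicate 2 (edgeR adjusted p of 0.152 and 0.0969). YPEL4, opposite to the cleavage factor gene CLP1, went from 416 and 392 to 696 and 557 counts (0.70, SE 0.08, edgeR adjusted p = 4.59e-13), and ANKRD42-DT, opposite to PCF11, from 105 and 83 to 178 and 151 (0.87, SE 0.14). SFT2D3, opposite to WDR33, the subunit that reads the poly(A) signal, went from 109 and 101 to 188 and 150 counts (0.75, SE 0.14). All of these had arsenite libraries above the mock libraries. ENSG00000265205, opposite to the elongation factor gene SUPT6H, was the row that fell, a call that was lost with DESeq2 size factors. The DESeq2 test called 3 of these 6 rows.

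Ribosomal protein genes had 34 of 83 own rows tested, of which 9 rose and 0 fell, with a median of 0.40. The share that rose was 26.5%, against 10.9% of all rows and 16.6% of protein-coding rows. With scaling by library totals 1 was called lower. Rows past a 3′ end gave 4 of the 9, from 7 tested, rows opposite to an exon another 4, from 16 tested, and a row opposite to an intron 1. Beside RPL36A they included RPL9 (25 and 36 to 113 and 95 counts; 1.83, SE 0.21), RPL12 (23 and 26 to 69 and 54) and RPS6 (16 and 16 to 47 and 46). Both arsenite libraries exceeded both mock libraries in each. Of 27 rows opposite to ribosomal protein exons, 3 rose and 3 fell (11.1% each), near the 10.9% and 9.41% of all rows. Reads of ribosomal protein genes may be shared with their many pseudogenes.

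Stress granule protein genes had 2 of 12 own rows higher, FXR2 and YBX1 (16.7%, against 10.9% of all rows). This share was near the 16.6% of protein-coding rows. The row FXR2 overlaps an exon of MPDU1 on the other strand. Of 11 opposite rows 0 were called by edgeR or DESeq2, with 1 at an edgeR unadjusted p under 0.05. FXR2 lost its call without mock replicate 2 or arsenite replicate 1 (edgeR adjusted p of 0.327 and 0.0571), and YBX1 without mock replicate 1, mock replicate 2 or arsenite replicate 1 (0.0569, 0.0679 and 0.111). The DESeq2 test called neither (adjusted p of 0.138 and 0.139). Hepatocyte genes had 3 of 21 own rows higher (14.3%, near the 10.9% of all rows): FGB, the fibrinogen beta chain (22 and 13 to 73 and 48 counts; 1.84, SE 0.27), VTN, vitronectin, and KRT8, a keratin opposite to KRT18. Of 6 opposite rows 3 rose by 0.18 to 0.20, among them APOA1-AS and again KRT8. The KRT8 call was lost without mock replicate 1 or arsenite replicate 2 (edgeR adjusted p of 0.0579 and 0.0535). Cell cycle genes had 1 of 11 own rows called higher (9.09%, near the 10.9% of all rows), FEN1, the flap endonuclease (45 and 37 to 128 and 130 counts; 1.72, SE 0.18), while its opposite row TMEM258 fell from 244 and 233 to 151 and 132 (−0.69, SE 0.12). Opposite rows of the cell cycle list rose in 1 (7.69%) and fell in 2 (15.4%) of 13 cases, against 10.9% and 9.41% of all rows. Nuclear noncoding RNAs had 3 of 12 own rows higher (25.0%, against 10.9% of all rows), with SNHG12, a snoRNA host gene, from 11 and 7 to 28 and 25 counts (1.61, SE 0.37), and its opposite row TRNAU1AP lower, from 29 and 25 to 15 and 12. Of the opposite rows of that list 1 of 15 rose (6.67%) and 2 fell (13.3%), of which DESeq2 called 0. In the FEN1 and SNHG12 pairs the rows moved in opposite directions. They are neighbours that overlap only at their ends, by 166 bases for FEN1 and 8 for SNHG12. TMEM258 also overlaps exons of MYRF, by 400 bases.

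Of the 8 rows with most counts 4 were called higher, by 0.22 or 0.23 on the log2 scale, 3 were not called and 1 fell by 0.18. That fall lost its call without mock replicate 1, mock replicate 2 or arsenite replicate 2 (edgeR adjusted p of 0.162, 0.163 and 0.241). Of all rows tested 10.9% were called higher and 9.41% lower, and of rows averaging 20 CPM or more 13.1% and 13.2%. Rows with this many counts can be called at small differences, so these shares are not like for like. TALAM1, opposite to the nuclear RNA MALAT1, had 67431 and 66327 counts after mock and 81932 and 66713 after arsenite, and was higher by 0.22 (SE 0.06, edgeR adjusted p = 0.00467). This call was lost without mock replicate 1 (edgeR adjusted p = 0.0718). ENSG00000258017, opposite to the tubulin gene TUBA1B, and ENSG00000269968, opposite to GAPDH, were called higher too, as was BEST1. ENSG00000285608, opposite to ARHGAP5, had a log2 fold change of −0.05 (edgeR adjusted p = 0.564).

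Mitochondrial DNA is transcribed from both strands into long RNAs that are cut at the tRNAs. Of 37 rows 34 were tested, 8 rose (23.5%) and 11 fell (32.4%), against 10.9% and 9.41% of all rows. DESeq2 called 3 higher and 8 lower. In the edgeR calls the direction followed the order of the genome. The segment MT-RNR1 to MT-ATP6 (chrM:648-9207) had 13 tested rows on the plus strand, of which 6 rose and 0 fell. From MT-CO3 to MT-ND5 (chrM:9207-14148) 9 of 10 rows fell and none rose, with log2 fold changes from −0.77 to −0.17. Over the tested rows of both strands, the median log2 fold change of the first segment was 0.24 in the NES, 0.20 in the NLS and −0.03 in the G3BP1 line. For the second segment it was −0.50, −0.61 and −0.30. Differences between these medians were not tested. The 2 limits of the segments were set after the values were seen. A mitochondrial row name too may stand for RNA of the other strand, so these rows need not show the mRNAs they are named for. For scale, the minus-strand row MT-ND6 had 10418 and 10165 counts in the mock libraries, and the plus-strand row MT-CO1 733 and 619. Which strand the rows hold was not tested. MT-ND1, a complex I subunit, went from 286 and 253 to 429 and 331 counts (0.56, SE 0.09, edgeR adjusted p = 4.61e-07) and MT-CO1, a subunit of cytochrome oxidase, from 733 and 619 to 1076 and 732 (0.48, SE 0.08). MT-CO3, another subunit of the same enzyme, fell from 654 and 604 to 465 and 383 (−0.50, SE 0.08, edgeR adjusted p = 1.83e-07), and MT-ND5 from 4822 and 4767 to 3756 and 2868 (−0.47, SE 0.06, edgeR adjusted p = 9.47e-11).

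As a share of the library, the segment MT-CO3 to MT-ND5 held 0.679% and 0.677% of counts after mock and 0.499% and 0.449% after arsenite. The segment MT-RNR1 to MT-ATP6 held 0.716% and 0.686% against 0.675% and 0.654%, including tRNA rows of the minus strand that are its best counted rows. In both segments the arsenite libraries lay below the mock libraries. Among the 6 minus-strand rows of that stretch MT-TC and MT-TY fell, by 0.18 and 0.26 on the log2 scale. MT-ND6, the only protein gene of the other strand, had 10418 and 10165 counts after mock and 12136 and 8125 after arsenite (0.03, edgeR adjusted p = 0.798), and was called without arsenite replicate 2 (log2 fold change 0.17, edgeR adjusted p = 0.0486). MT-CYB, next to it, rose by 0.29 (SE 0.07). The ribosomal RNA rows MT-RNR1 (4 and 2 to 20 and 13 counts, a ratio of 5.75 with a 95% exact counting interval of 2.38 to 16.8) and MT-RNR2 (25 and 11 to 47 and 33) had few counts. The libraries were depleted of ribosomal RNA, and these row names may stand for the other strand. The cause of the low counts was not tested.

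**Figure D4:**
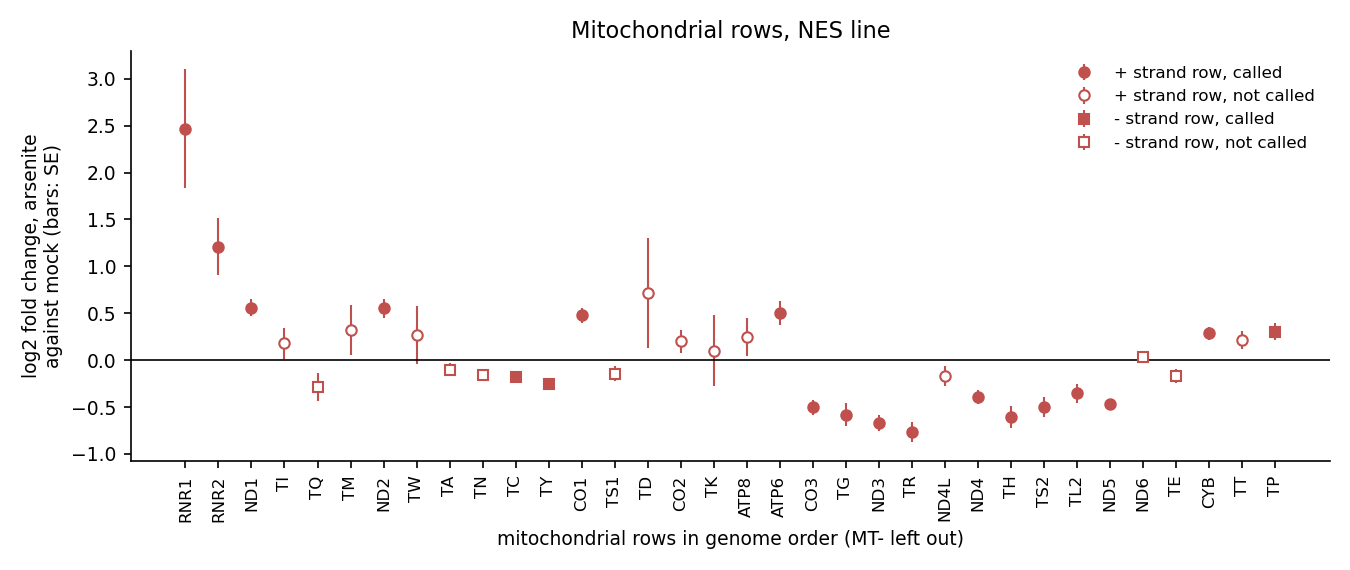
Log2 fold change of arsenite against mock in the NES line for the 34 tested mitochondrial rows in genome order, circles for plus-strand rows and squares for minus-strand rows, filled where called, with bars of 1 SE. Called plus-strand rows are above 0 up to ATP6 and at CYB, and below 0 from CO3 to ND5.

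Whether the NES response differed from that of the other lines was tested directly, as the NES effect minus the mean of the NLS and G3BP1 effects. A single row of 13108 was called (0.00763%), against 854 rows at an unadjusted p under 0.05, and the DESeq2 test called 0, with 171 at an unadjusted p under 0.05. The called row was EPS8L3, named for its likeness to the actin regulator EPS8, at chr1:109750080-109764027 opposite to an intron of GSTM5, a glutathione transferase gene. It had 69 and 68 counts after mock and 28 and 25 after arsenite in the NES line (−1.30, SE 0.24, edgeR adjusted p = 4.87e-06), with log2 fold changes of −0.18 in the NLS and 0.67 in the G3BP1 line, and the difference was −1.55 (edgeR adjusted p = 0.0405). With library totals 6 rows were called, and 0 with DESeq2 size factors. Leaving out mock replicate 1 left 0 rows called, and leaving out either arsenite library gave 3. All 24 of the largest rises and falls had the same sign in the NLS and G3BP1 lines, and all 24 were called in each.

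The class medians in the 3 lines, each against its own mock libraries, lay close together. Rows past a 3′ end had medians of 0.42 in the NES, 0.34 in the NLS and 0.38 in the G3BP1 line, and rows opposite to an intron −0.36, −0.30 and −0.31. Rows opposite to an exon had 0.05, 0.07 and 0.07. Differences between these medians were not tested. Some single rows were less alike: CHORDC1 had a log2 fold change of 0.88 in the NES line and of 0.12 and 0.08 in the NLS and G3BP1 lines, and FEN1 1.72 against 0.51 and 1.02. Neither difference passed the test of the difference over all rows.

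**Figure D5:**
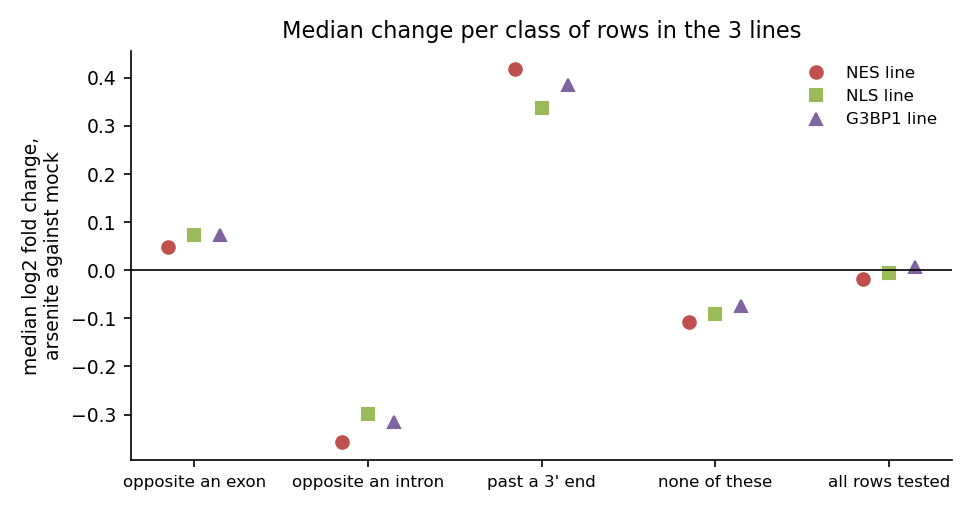
Median log2 fold change of arsenite against mock over the tested rows of each class (horizontal axis) in the NES (red circles), NLS (green squares) and G3BP1 (purple triangles) lines. The medians for rows past a 3′ end lie between 0.34 and 0.42 and those for rows opposite to an intron between −0.36 and −0.30.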

How the data were processed

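The table deposited by the authors holds a raw count for each of 61255 gene rows in 16 columns. Columns were matched to samples by their titles, and 4 columns that match no sample were not used. Per the submitters' processing notes, Trim Galore, Subread, featureCounts, edgeR and the build GRCh38.p13 were used. Versions, the strand setting of the counting and the annotation release are not given in the sources used here. The members and lists were chosen with earlier results of these data known. A total of 57004 rows were placed by identifier or symbol on GENCODE release 29, which may differ from the authors' annotation. Counts as deposited were fitted with edgeR 4.0.16 (R 4.3.3; TMM, filterByExpr with a minimum count of 10 and total of 15, quasi-likelihood F test) in 12 libraries with 1 mean per group and 6 residual degrees of freedom, and p-values were adjusted by Benjamini-Hochberg over 13108 rows. Rows named are the 12 largest rises and falls, and 3 of each per class, among called rows averaging 20 CPM or more with groups that do not overlap, the 8 most counted rows, up to 4 called rows per list with the smallest adjusted p, and called differences between lines. Other names, such as GLA, CHKA, GAPDH and further list members, were chosen after their values were seen. The fit was tested on simulated data. Alternatives were DESeq2 1.42.0, other scalings, filters, thresholds and classes, replicate blocks, the NES libraries alone, and leaving out each library. The replicates of a group differed beyond counting noise (chi-square over degrees of freedom of 1.11 for mock and 1.39 for arsenite). This does not show whether they are separate cultures or technical replicates. Each library was counted as a replicate.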

Additional observations from a re-analysis of the deposited data

Results flagged for a closer look

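EPS8L3 stood apart by a test of the difference between lines. Its arsenite effect was lower in the NES line than the mean of the NLS and G3BP1 effects by −1.55 on the log2 scale (edgeR adjusted p = 0.0405), from log2 fold changes of −1.30 in the NES, −0.18 in the NLS and 0.67 in the G3BP1 line. It was the 1 row called of 13108, and the DESeq2 test called 0. The cause was not tested.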

How the results depend on the processing

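The 2658 rows called in the NES line became 1040 with the DESeq2 test (622 higher, 418 lower), 1667 at an adjusted p under 0.01 (949 and 718) and 1240 with a 2-fold minimum (780 and 460), and leaving out each replicate gave 1747 to 1836 (987 to 1091 higher, 745 to 763 lower). The classes, higher and lower, became with the DESeq2 test 239 and 136 opposite to an exon, 38 and 124 opposite to an intron, 243 and 31 past an end, and 88 and 98 in none. Leaving out each replicate gave 345 to 392 and 199 to 227, 56 to 67 and 234 to 277, 372 to 433 and 50 to 57, and 157 to 174 and 170 to 182 in the same order. Class none had 92 and 106 with genes of all types as partners, and 352 higher with a window of 5 kb, since rows change class by construction. The difference between lines gave 0 with DESeq2 size factors, no filter, a mean of at least 1 CPM or the DESeq2 test, 6 with total counts, and 0 to 3 when leaving out each replicate. The cause was not tested.

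Replicate numbers did not pair the libraries: deviations of same-numbered libraries correlated with r = −0.05 in the NES line, −0.01 in the NLS and −0.00245 in the G3BP1 line over 6502 rows. With a replicate block common to all lines 2738 rows were called, 2645 of them shared with the 2658, and with a block within lines 2686, 2615 shared. The difference between lines gave 2 and 7 under these blocks. The 4 NES libraries alone gave 2709, and 2753 with the replicate block, an alternative chosen after seeing the data. Over both scalings, both filters and both blocks, all 84 named rows kept their direction and their side of the threshold, and no named row reversed under any alternative run. Ribosomal opposite rows called higher went from 3 to 5 with the common block.

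At these depths 3 counts are 2.15 to 2.64 CPM, and small changes in rows near that level cannot be shown. With 2 libraries a side, which may be technical replicates, the spread rests on the other lines too. Row names may stand for the opposite strand, the annotation release may differ from the authors', and places past an end or in an intron overlap where genes are dense.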

Other observations

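The shares also changed with distance from the ends of the chromosomes, a pattern looked for after the falls near the tip of chromosome 11 were seen. Distance was taken from the outermost annotated gene of each chromosome of GENCODE release 29, without the Y chromosome and the mitochondrial genome. Of 57 rows opposite to an intron within 1 Mb of an end, 26 fell (45.6%) and 0 rose, with a median log2 fold change of −0.86. The share that fell was 30.4% of 46 rows at 1 to 2 Mb, 21.4% at 2 to 5 Mb, 19.6% at 5 to 10 Mb and 15.3% of 2080 rows farther in. The 26 rows lie in 21 host genes on 13 chromosomes. The medians within 1 Mb were −0.67 in the NLS and −0.88 in the G3BP1 line. Rows past a 3′ end also differed by place: within 1 Mb of an end 12.8% of 94 rows rose and 13.8% fell, against 30.1% and 3.21% of 1400 rows more than 10 Mb away. Of rows opposite to an exon 13.3% fell within 1 Mb and 5.87% more than 10 Mb away. For rows with none of the places these shares were 8.62% and 9.25%. Of all 455 rows within 1 Mb 7.69% rose and 16.3% fell, against 11.3% and 8.4% more than 10 Mb away.

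Rows near chromosome ends had a higher GC content. For rows opposite to an intron the median was 49.7% within 1 Mb and 44.9% more than 10 Mb away. Split at 50% GC, 35.2% of 54 rows and 42.9% of 49 rows within 2 Mb fell, GC-rich rows first, against 15.5% and 15.3% more than 10 Mb away. The part of GC content in the result was otherwise not tested. In the first 2 Mb of chromosome 11, CDHR5, a protocadherin row past PHRF1, fell from 249 and 258 to 72 and 70 counts, and SCT, the secretin row beside it, from 32 and 41 to 14 and 7, whereas CD151, a tetraspanin row, rose from 59 and 59 to 96 and 76. POLR2L, PRADX, MIR210HG and KRTAP5-AS1 were also called higher there. Beside the falls named above, ENSG00000277290, DEAF1, TSPAN4, ENSG00000250397 and MRPL23-AS1 were called lower.

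The row COL3A1, named for a fibroblast collagen that is no marker of hepatocytes, rose from 15 and 16 to 70 and 51 counts (2.02, SE 0.27, edgeR adjusted p = 7.47e-10). Its name may stand for RNA of the other strand, and 2 of the 6 fibroblast rows were at 0 in all 4 libraries.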
